A study of Mus musculus with 2 samples.

Results

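The translation initiation factor genes were taken as every non-control probe whose gene name in the scanner files begins with Eif and a digit, leaving out Eif2s3x, Eif2s3y and Eif2ak2. That rule found 89 of 55676 probes, for 55 of 34959 gene names. The RNA came from regulatory T (Treg) cells, CD4 T cells that restrain immune responses, sorted from Nr4a-TKO mice and from wild-type (WT) mice, all 5 weeks old. Each genotype was represented by 1 sample on 1 array. Nr4a1, Nr4a2 and Nr4a3 encode related nuclear receptors, and the series title concerns their part in the Treg transcriptional program. The labels do not say which alleles make up the TKO genotype, whether a Cre line was used, how many mice were pooled, or which markers were used for sorting.

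Initiation is the step at which a ribosome is loaded onto an mRNA and finds its start codon. The eIF4 proteins bind the cap of the mRNA and unwind its leader, eIF3 joins the mRNA to the small ribosomal subunit, and eIF2 brings the initiator tRNA. Cells slow this step in 2 well known ways: kinases of the Eif2ak family phosphorylate eIF2, and binding proteins encoded by the Eif4ebp genes sequester the cap-binding protein eIF4E until mTOR phosphorylates them. In T cells, activation and growth are accompanied by a rise in translation. Some names in the family stand for other proteins. The Eif2c names are older symbols of the Argonaute genes Ago1 to Ago4, which act in microRNA silencing, so they were kept apart from the eIF2 genes.

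All values below are log2 signals relative to the 75th percentile of the same array, and all differences are Nr4a-TKO minus WT. With 1 array per genotype there is no replicate check, so no p-value or standard error is given, and the number of arrays limits the precision. The scanner called 63.9% of all probes well above background on the Nr4a-TKO array and 66.0% on the WT array, and 84 and 85 of the 89 Eif probes in the same order of arrays. It marked 0 spots as saturated. The array labelled Nr4a-TKO was not low for every gene in its name: Nr4a3 was at -3.93 in Nr4a-TKO and -1.11 in WT, Nr4a1 at 6.96 and 6.90, and Nr4a2 at 0.18 and -1.16. Foxp3, the factor that defines Treg cells, was at -2.57 in Nr4a-TKO and 1.54 in WT, and it was well above background on both arrays. All 6 Treg and T cell markers checked were well above background on both arrays and lower on the Nr4a-TKO array. Of the markers of other cells, 3 of 4 CD8 and NK cell markers and 2 of 4 macrophage and dendritic cell markers were well above background on the Nr4a-TKO array, with 3 of each on the WT array. The granulocyte markers stood at 1 of 3 on the Nr4a-TKO array and 3 of 3 on the WT array, and the log2 of their summed signal was -3.90 in Nr4a-TKO and -0.88 in WT. The erythroid markers stood at 0 of 2 on the Nr4a-TKO array and 1 of 2 on the WT array. The arrays also differed in sex-linked RNA: all 7 Xist probes were brighter on the Nr4a-TKO array, 7 of them well above background there and 2 on the WT array. The Y-linked Ddx3y was at 0.38 in Nr4a-TKO and 2.24 in WT, well above background on both. The part of these differences in the results below was not tested, and in sorted samples fewer cells of a type and less RNA per cell cannot be told apart.

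The probes that carry the main differences are shown by the bases at their 5′ end (30 of 60 bases), as printed in the scanner files, with their mm9 positions. Eif4ebp1 is shown because it was the member that differed most, Eif4ebp2 as a related gene with a difference of 0.08, and the 3 probes of Eif2c2 because they did not give the same size of difference.
Eif4ebp1, chr8:28385887-28385946, plus strand: cagcctccggagcacacccatctttcctta
Eif4ebp2, chr10:60895379-60895438, minus strand: accgggccattttccacatctgcatcagaa
Eif2c2 (Ago2), chr15:72928888-72928947, minus strand: cagtagtgatgttacttaaagttaagcctt
Eif2c2 (Ago2), chr15:72936863-72936922, minus strand: catgaaagccacaccatttccattggggtt
Eif2c2 (Ago2), chr15:72935705-72935764, minus strand: acgagccttctcttgtgtgctgctctgtgc
Each sequence is 1 oligonucleotide on the array, and a gene's value below is that of its probe with the highest mean signal.

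Of the 55 genes, 52 were well above background on both arrays. Among these, 1 was at least 2-fold higher in Nr4a-TKO, against 3.15% of the 23492 gene names measured, and 0 were at least 2-fold lower, against 3.06%. At 1.5-fold the counts were 4 higher and 0 lower, with 8.36% and 7.36% of all gene names past that size. Among gene names in the middle 50% of the members' own signal range, between 3.51 and 6.06, 1.45% passed 2-fold upward and 0.979% downward. At 2-fold the members' counts are near these shares. The 1.5-fold counts also moved with the scaling, to 2 higher and 1 lower with quantile normalization, housekeeping centring or loess, and to 1 higher and 1 lower with spike-ins as the centre. The members' median difference was 0.24, beside 0.08 over all gene names. Gene names in that signal range had a median of 0.15. By any amount, 45 of 52 members were higher in Nr4a-TKO, beside 59.7% of all gene names and 70.5% of those in that signal range. These small differences depend on how the arrays are aligned: with spike-in controls as the centre, 20 of 52 members were higher and their median was -0.04, while the median of all gene names was -0.20. Relative to the median of all gene names, the members' median was 0.16 higher in the main setting, 0.10 higher with loess and 0.078 higher with quantile normalization. Centring on spike-ins shifts all genes alike and cannot change that gap. The direction was the same in the main setting and in all 8 other corrections and scalings for 27 of 52 members, 20 of them higher and 7 lower. Every scaling that shifts all genes alike lowered the differences, by up to 0.27 with spike-ins. The 7 lower members could thus not turn under those scalings, while small positive differences could. The share of all gene names that kept 1 direction is not given here. The SD of the differences was 0.32 among all 52 members, 0.23 among the 51 other than Eif4ebp1 and 0.56 over all gene names. The last includes gene names outside the members' signal range, and an SD within that range is not given here.

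**Figure D1:**
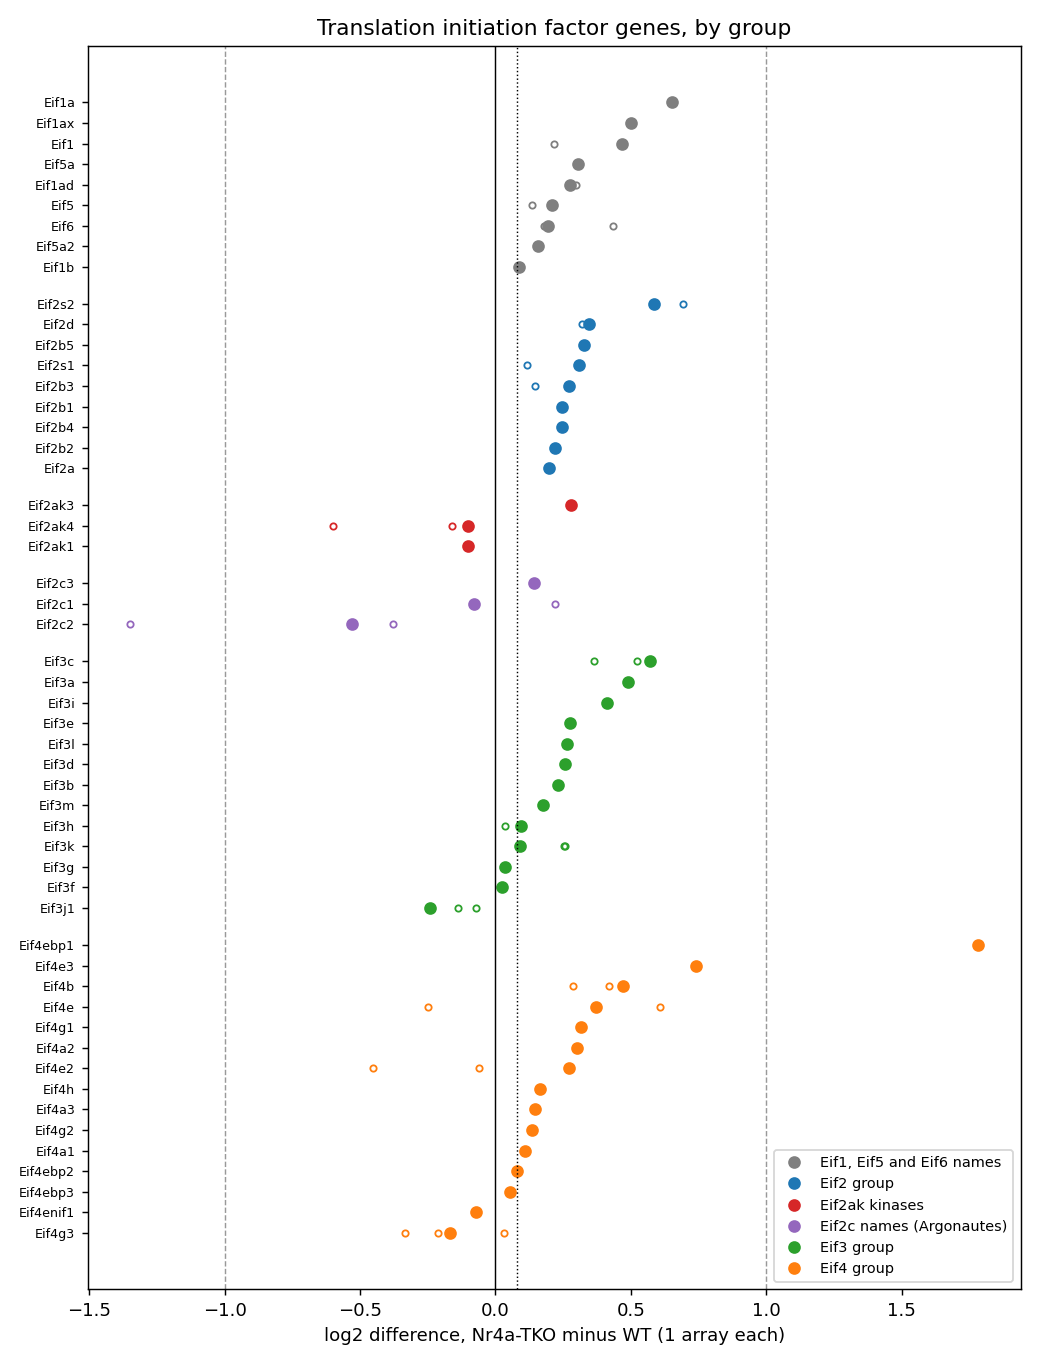
Log2 difference of each measured Eif gene, Nr4a-TKO minus WT, 1 array each, ordered within its group. Filled points are the probe with the highest mean signal, open points the gene's other measured probes, the dotted line is the median of all gene names (0.08) and the dashed lines mark 2-fold. Eif4ebp1 at 1.78 is the only filled point outside the dashed lines, and the open point at -1.35 is a probe of Eif2c2.

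Probes spotted several times show the error within an array, but not that of labelling, hybridisation or the offset between arrays. The 9 spike-in probes, which bear on that offset, differed by -0.01 to 0.32. Over 262 repeated probes the median SD between spots was 0.051 on the Nr4a-TKO array and 0.061 on the WT array, which gives 0.080 for a difference. A probe of Eif2d was among them, with a spot SD of 0.039 over 10 spots on the Nr4a-TKO array and 0.038 over 8 spots on the WT array. Several probes were measured for 21 members, and in 17 of these the probes shared 1 direction. The largest gap between probes of a member had a median of 0.18, beside 0.25 over 6748 gene names, and reached 0.97 for Eif2c2. Neither spread includes differences between animals or between cell sorts.

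In the Eif4 group, 15 of 16 genes were measured and the median difference was 0.16. Eif4ebp1, which encodes a repressor that holds eIF4E away from the cap complex, was at 5.54 in Nr4a-TKO and 3.76 in WT, a 3.44-fold higher signal. It kept a difference between 1.51 and 1.82 over the 8 other corrections and scalings. In the main setting 209 of 23492 gene names were higher in Nr4a-TKO by more, a count that leaves out gene names lower by more. Eif4ebp1 was read by 1 probe, so no second probe of the gene checks it. Its relatives did not share that difference: Eif4ebp2 was at 4.09 in Nr4a-TKO and 4.01 in WT, and Eif4ebp3 at 3.40 and 3.35. Differences of 0.08 and 0.05 are at or under the 0.080 of error between spots, and both turned negative with spike-ins as the centre. Eif4enif1, the carrier that takes eIF4E into the nucleus, was at 3.49 in Nr4a-TKO and 3.56 in WT.

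The genes of the cap-binding proteins differed less in RNA than Eif4ebp1, and protein was not measured. Eif4e was at 4.04 in Nr4a-TKO and 3.67 in WT at its brightest probe, and at 1.62 and 1.01 at the second, while a dim probe further upstream differed by -0.25. Eif4e3, a divergent cap-binding relative, was at 0.64 in Nr4a-TKO and -0.10 in WT, which is 1.67-fold higher and the largest difference among the members after Eif4ebp1. Eif4e2, whose protein competes for the cap and represses translation, was at 5.12 in Nr4a-TKO and 4.85 in WT at its brightest probe. That direction turned with spike-ins as the centre, and the gene's 2 dim probes differed by -0.06 and -0.45. Eif4e1b, known from oocytes, was not well above background on either array at either of its 2 probes. At the brightest probes, the difference was thus 0.37 for Eif4e and 1.78 for the gene of its repressor.

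The helicase and scaffold genes ranged from -0.17 for Eif4g3 to 0.47 for Eif4b. Eif4b, which stimulates the helicase, was at 5.57 in Nr4a-TKO and 5.10 in WT, with its 3 probes between 0.29 and 0.47. Eif4a1, the main helicase, was at 7.13 and 7.02, and Eif4a2, its close relative, at 5.75 in Nr4a-TKO and 5.44 in WT. Eif4a3, which belongs to the exon junction complex, differed by 0.15, and Eif4h, a further helicase partner, by 0.16. Of the scaffolds, Eif4g1 differed by 0.32, Eif4g2, which lacks the eIF4E-binding part, by 0.13, and Eif4g3 by -0.17. The differences of Eif4a1, Eif4a3, Eif4g2 and Eif4h turned negative with spike-ins as the centre, while those of Eif4b, Eif4a2 and Eif4g1 stayed positive. Without the Eif4ebp genes and Eif4enif1 the group's median was 0.27.

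**Figure D2:**
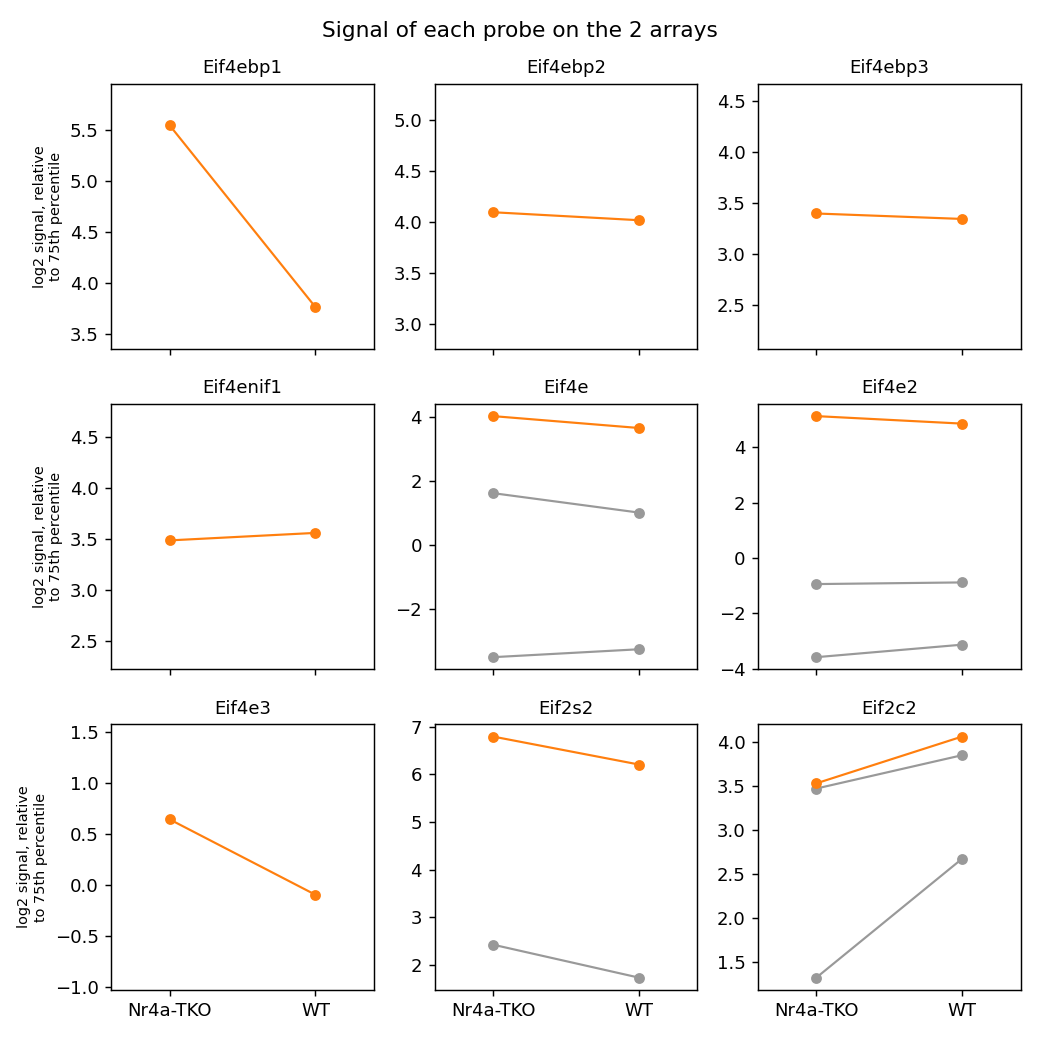
Log2 signal relative to the array's 75th percentile on the Nr4a-TKO array (left) and the WT array (right), 1 array each, for 9 Eif genes. Orange marks the probe with the highest mean signal and grey the gene's other measured probes; vertical ranges differ between panels. Eif4ebp1 is at 5.54 and 3.76 while Eif4ebp2 is at 4.09 and 4.01, and all 3 probes of Eif2c2 are lower in Nr4a-TKO.

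All 9 genes of the Eif2 group were measured, and all 9 were higher in Nr4a-TKO in the main setting, by 0.20 to 0.59, with a median of 0.27. Of all gene names 59.7% were higher, and 70.5% of those in the middle 50% of the members' signal range. With spike-ins as the centre 4 of 9 were higher, beside 26.7% of all gene names, and the group's median was 0.00. Eif2s2, the beta subunit of eIF2, was at 6.79 in Nr4a-TKO and 6.21 in WT, just past 1.5-fold higher, and its second probe differed by 0.69. Eif2s1, the alpha subunit that the Eif2ak kinases phosphorylate, was at 5.73 in Nr4a-TKO and 5.42 in WT, and its second probe differed by 0.12. eIF2B is the factor that recharges eIF2 with GTP and that phosphorylated eIF2 blocks. The genes of its 5 subunits differed by 0.22 to 0.33 at their brightest probes. Eif2b1 differed by 0.24, Eif2b2 by 0.22, Eif2b3 by 0.27, Eif2b4 by 0.24 and Eif2b5, the catalytic subunit, by 0.33. The second probe of Eif2b3 differed by 0.15. Of these 5, only Eif2b5 stayed positive with spike-ins as the centre. Eif2d, which delivers tRNA outside the usual route, was at 3.39 in Nr4a-TKO and 3.04 in WT, and Eif2a differed by 0.20.

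The 3 kinases had a median of -0.10 and stood below the Eif2, Eif3 and Eif4 medians in the main setting and in all 11 alternatives. Scalings that shift all genes alike cannot change that order, so their rows add no support. Normexp, quantile normalization, loess and the mean over probes can change it. The kinase medians there were -0.08, -0.11, -0.14 and -0.10, still below the other 3 groups. Eif2ak4, the amino acid sensor GCN2, was at 2.02 in Nr4a-TKO and 2.12 in WT, and its other probes differed by -0.60 and -0.16. Eif2ak1, the heme-regulated kinase, was at 0.64 in Nr4a-TKO and 0.74 in WT. Eif2ak3, the endoplasmic reticulum stress kinase PERK, was at 1.36 in Nr4a-TKO and 1.08 in WT. At the brightest probes none of these 3 was past 1.5-fold, though a dim probe of Eif2ak4 (-0.60) was. With 3 genes the group is thin, and the gap between the kinases and the other groups was not tested.

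A list of genes tied to eIF2 phosphorylation had a larger median difference than the kinases or eIF2 itself. It mixes genes of the response with regulators of the kinases and of the phosphorylation, and its genes did not differ alike. Of 13 measured genes of that list, 6 were at least 2-fold higher and 0 lower, against 3.15% and 3.06% of all gene names. At 1.5-fold 7 were higher and 0 lower, against 8.36% and 7.36%. The median was 0.91, or 0.64 with spike-ins as the centre. In that setting 5 were at least 2-fold higher, as were 449 of 23492 gene names. Asns, which makes asparagine, was at 5.68 in Nr4a-TKO and 1.62 in WT, and Chac1, which degrades glutathione, was at 3.47 and -0.29. At the low end, Nck1 differed by -0.08 and Dnajc3, an inhibitor of the kinases, by -0.31. Atf4, the transcription factor whose mRNA is translated better when eIF2 is phosphorylated, was at 8.20 in Nr4a-TKO and 7.29 in WT. It was named after its values were seen. The list was drawn up with these differences known, so its counts are no independent evidence.

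**Figure D3:**
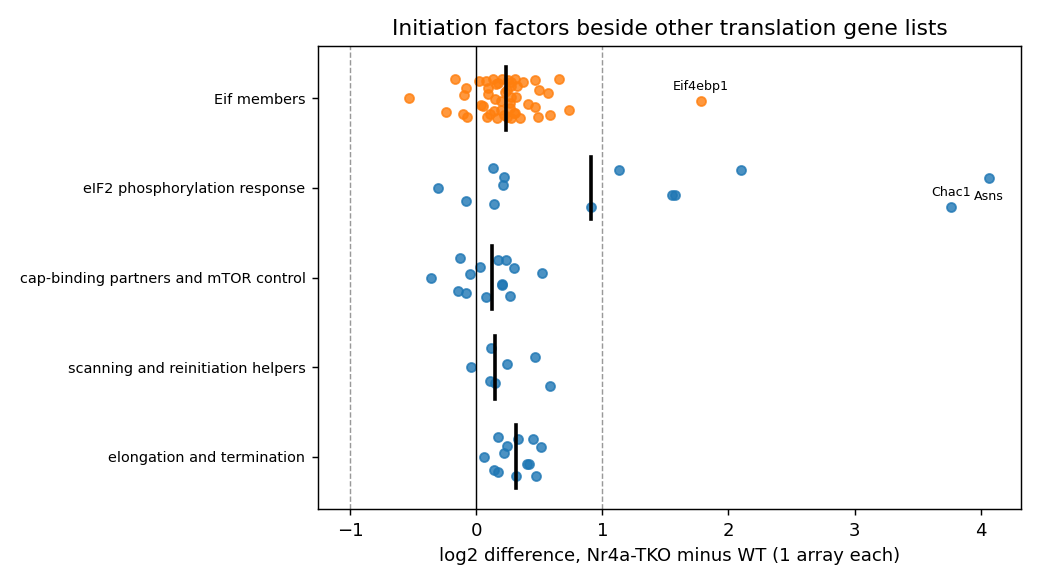
Log2 difference, Nr4a-TKO minus WT, 1 array each, of the measured Eif genes (orange) and of 4 other gene lists of translation (blue); points are genes, spread vertically for visibility, and black bars are medians. The list named eIF2 phosphorylation response, which also holds regulators, has a median of 0.91 and reaches 4.06 for Asns. The Eif genes have a median of 0.24 and reach 1.78 for Eif4ebp1.

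All 13 genes of the Eif3 group were measured, with a median of 0.23, or -0.04 with spike-ins as the centre. eIF3 is a large complex, and the genes of its subunits did not differ to the same extent. Eif3c, a core subunit, was at 7.83 in Nr4a-TKO and 7.26 in WT, and its 3 probes differed by 0.37 to 0.57. Eif3a, the largest subunit, was at 4.51 in Nr4a-TKO and 4.02 in WT. Eif3i was at 5.45 in Nr4a-TKO and 5.03 in WT, while Eif3b and Eif3g, which bind it, differed by 0.23 and 0.04. These 3 subunits, Eif3a, Eif3c and Eif3i, and Eif3e (0.28) were the Eif3 genes that stayed higher in all settings.

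For 6 further subunits, with differences of 0.02 to 0.26, the direction depended on the scaling. Eif3f was at 5.82 in Nr4a-TKO and 5.80 in WT, and Eif3h, the second subunit of the same MPN domain type, at 7.95 and 7.85. Eif3k differed by 0.09 at its brightest probe and by 0.25 and 0.26 at the others. Eif3m differed by 0.17, Eif3l by 0.26, and Eif3d, which can itself bind the cap of some mRNAs, by 0.26. All 6 of these turned negative with spike-ins as the centre. Eif3j1, a loosely attached subunit, was the only Eif3 gene that was lower, at 3.23 in Nr4a-TKO and 3.47 in WT, and its 3 probes were all negative. Of these probes, 2 also list a transcript of Eif3j2, so the copies cannot be separated there.

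Of the Eif1, Eif5 and Eif6 names, 9 of 10 were measured, with a median of 0.28. Eif1a had the largest difference of these, and was at 4.55 in Nr4a-TKO and 3.90 in WT, 1.57-fold higher, and its X-linked relative Eif1ax was at 6.33 in Nr4a-TKO and 5.83 in WT. The proteins of these genes are alike and help the small subunit move along the mRNA. The arrays also differed in Xist, and the labels give no sex, so sex and genotype cannot be told apart for Eif1ax. Eif1, which guards the choice of start codon, was at 6.87 in Nr4a-TKO and 6.40 in WT, with a second probe at 0.22, whereas its relative Eif1b differed by 0.09. Eif1ad, a distant relative of eIF1A, differed by 0.28. All of these but Eif1b stayed higher in all settings, Eif1ad by 0.0026 with spike-ins as the centre.

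Genes of factors of later steps differed by 0.16 to 0.31. Eif5, which triggers GTP hydrolysis by eIF2, was at 5.58 in Nr4a-TKO and 5.38 in WT. Eif5a, which carries the hypusine modification and helps ribosomes elongate, was at 7.27 in Nr4a-TKO and 6.96 in WT, and Eif5a2, its less widely expressed relative, differed by 0.16. Eif6, which keeps large ribosomal subunits free, differed by 0.19, and by 0.18 and 0.44 at its other probes. Of these, Eif5a alone stayed higher with spike-ins as the centre. Eif5b, the factor for subunit joining, was read by 1 probe that was not well above background on either array, so it has no value here.

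Of the 3 measured Argonaute genes, 2 were lower in Nr4a-TKO and 1 was higher, beside 59.7% of all gene names higher. With spike-ins as the centre 0 of 3 were higher, beside 26.7% of all gene names. With the mean over probes 2 of 3 were, beside 59.3%. A count over 3 genes says little beside these shares. Eif2c2, which is Ago2, the Argonaute that can cleave its target RNA, was at 3.53 in Nr4a-TKO and 4.06 in WT at its brightest probe. Its second probe was at 3.47 in Nr4a-TKO and 3.85 in WT, and the dimmest at 1.33 and 2.68, a difference of -1.35 that is past 2-fold. All 3 probes were lower in Nr4a-TKO, and the brightest stayed between -0.81 and -0.46 over the other corrections and scalings. Eif2c1 (Ago1) differed by -0.08 and 0.22 at its 2 probes, and Eif2c3 (Ago3) by 0.14. Eif2c4 (Ago4) was well above background on the WT array only, at 1 of its 2 probes, which was at -4.68 in Nr4a-TKO and -3.79 in WT. The bound on that difference, 1.85-fold lower in Nr4a-TKO, is nearly the 1.86-fold of the signals themselves. It is thus no firm lower limit. The other probe passed the background call on neither array and went the opposite way, at -4.73 in Nr4a-TKO and -5.22 in WT.

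Other genes of protein synthesis were read beside the initiation factors. All 13 genes of elongation and termination were higher in Nr4a-TKO, beside 59.7% of all gene names, with a median of 0.31. Past 1.5-fold there were 0, beside 8.36% of all gene names higher and 7.36% lower. With spike-ins as the centre 7 of the 13 were higher, beside 26.7% of all gene names. With loess 10 of the 13 were higher, beside 50.9%. Eef2k, the kinase that slows elongation, differed by 0.52 and Eef1d by 0.47, and Eef2, the elongation factor that Eef2k inhibits, by 0.06 and Eef1a1 by 0.14. Of 14 cap-binding partners and mTOR genes, 9 were higher and 5 lower, with a median of 0.12 and 0 past 1.5-fold. That count of higher genes is near the 59.7% of all gene names. With spike-ins as the centre 2 of the 14 were higher and 12 lower, with a median of -0.15, beside 26.7% of all gene names higher. Pabpc4 differed by 0.52 and Mknk2, a kinase of eIF4E, by 0.30, while Pdcd4, an inhibitor of the helicase, differed by -0.36 and Mtor by -0.14. Thus neither list held a gene with a difference as large as that of Eif4ebp1.

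Promoter windows from RefSeq on GRCm38.p6 (250 bases before to 50 after the start) were matched for 43 of the 55 genes. Eif4ebp1 was among the 12 not matched, so it was not searched. The E-box CACGTG, the same on both strands and the motif of Myc and related factors, was found in 10 of 43 (23.3%), beside 8.09% of 27025 genes with a window. Those 27025 genes were not matched to the members for expression or base content, here or for the motifs below. The gap in shares is therefore not one between like genes. The 10 members with the E-box had a median difference of 0.16, beside 0.24 for the 31 measured members without it. The 4 windows of the Eif4 group that hold it are shown, with the motif in capitals.
Eif4a1, chr11:69672595-69672624, minus strand: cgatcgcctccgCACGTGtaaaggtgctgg
Eif4e, chr3:138527028-138527057, plus strand: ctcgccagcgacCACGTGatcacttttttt
Eif4g1, chr16:20672661-20672690, plus strand: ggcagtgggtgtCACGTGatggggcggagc
Eif4h, chr5:134639488-134639517, minus strand: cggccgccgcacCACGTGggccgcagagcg
The letters TGATGNAA, a core of sites of ATF4 with C/EBP partners, were searched on both strands and were in 0 of the 43 windows, beside 4.51% of all genes. A match is a description of the letters, and no match says only that they are not in this window.

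Translation factors are also known for mRNAs that begin with a C and a run of pyrimidines, through which mTOR controls their translation. A C followed by at least 4 pyrimidines, beginning within 5 bases of the annotated start, was found in 12 of 43 genes (27.9%), beside 21.2% of all genes. The longest, 15 bases beginning 4 bases before the annotated start, was that of Eif3f, shown with the run in capitals.
Eif3f, chr7:108934405-108934428, plus strand: tctaggCTCTCTCTCTTTCTCggc
The 11 measured genes with such a run had a median difference of 0.23, and the 30 without it also 0.23.

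Across the groups, the order of the medians was Eif2 (0.27), Eif3 (0.23), Eif4 (0.16) and the kinases (-0.10), beside 0.08 for all gene names. The Eif2, Eif3 and Eif4 medians lay close together, and the order of Eif3 and Eif4 turned with normexp background correction (0.17 and 0.21), so it is no stable ranking.

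**Figure D4:**
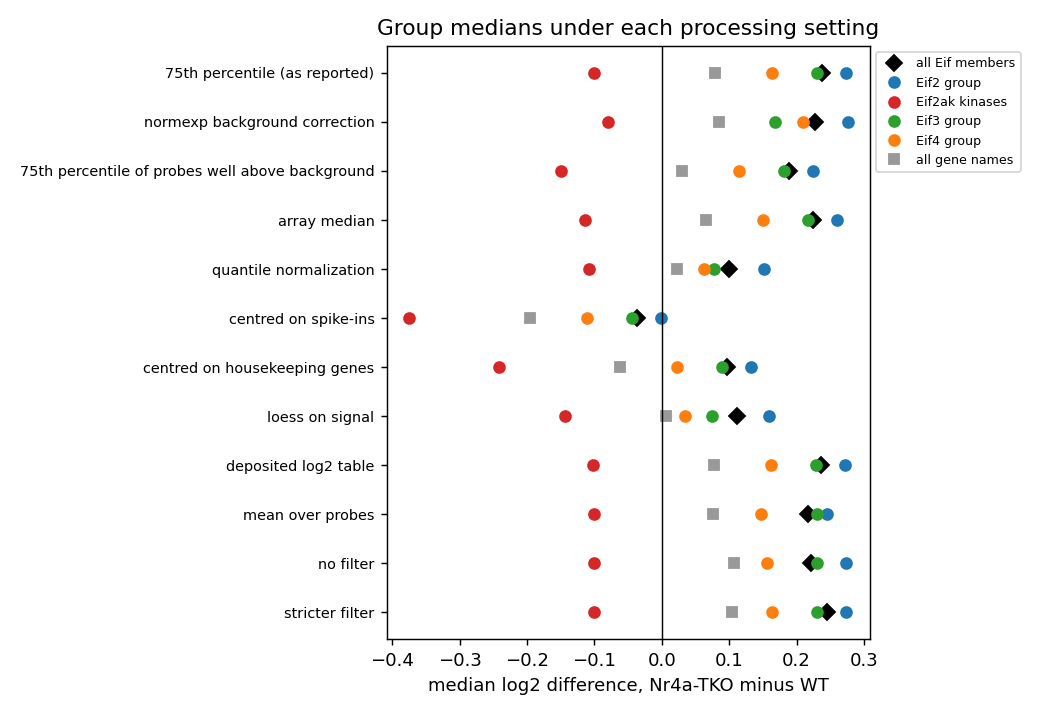
Median log2 difference, Nr4a-TKO minus WT, of all Eif genes, of the Eif2, Eif2ak, Eif3 and Eif4 groups and of all gene names (grey squares) under the reported scaling and 11 alternatives, 1 array per genotype. The Argonaute names are not plotted. Of the sets plotted, the kinases lie furthest left in every row, between -0.38 and -0.08, and the Eif2, Eif3 and Eif4 medians fall below 0 only with spike-ins as the centre. Scalings that shift all genes alike cannot change the order within a row.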

How the data were processed

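Total RNA of 1 Nr4a-TKO and 1 wild-type Treg sample was labelled with Cy3 and read on 1-colour Agilent arrays. Per the file headers, the deposited intensity of each spot was written by Agilent Feature Extraction 10.10.1.1, with probe positions on mm9. The authors' deposited log2 table differs from log2 of the processed signal by a single offset on each array (SD 0.00029); its column medians were -3.53 for Nr4a-TKO and -3.54 for WT, and the rule behind the constant is unknown. Groups follow the labelled genotype.

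Flagged spots (117 and 156) were left out, spots of a probe averaged as log2, and the 75th percentile over 55676 probes subtracted. A gene was its probe with the highest mean signal, counted where well above background on both arrays. Names came through accessions for 27508 probes (RefSeq, GRCm38.p6); members kept the file's name. Where only 1 array had signal, the bound took the higher of the dim array's lowest signal among probes well above background and the probe's own signal.

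Every Eif gene could be named, and at most the 2 highest and 2 lowest of other lists. Members and lists were chosen with earlier results of these data known, and the comparison within the members' signal range was added after seeing the data. Counting was tested on simulated data. R 4.3.3 with limma 3.58.1 and Python 3.11.15 were used. B cell markers are not reported here.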

Additional observations from a re-analysis of the deposited data

How the results depend on the processing

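Corrections, scalings, probe rules and filters were varied 1 at a time; the slide could not be a block, and no paired analysis was possible because each genotype had 1 array. The count of 1 member at least 2-fold higher and 0 lower held in all 11 of these alternatives. At 1.5-fold 4 were higher in the reported setting, and between 1 and 4 over the alternatives. With quantile normalization the medians were 0.10 for all members, 0.15 for Eif2, 0.077 for Eif3 and 0.063 for Eif4. With loess on signal (span 0.3) they were 0.11, 0.16, 0.074 and 0.035 in the same order. With housekeeping genes as the centre they were 0.096, 0.13, 0.089 and 0.022, and -0.24 for the kinases. With spike-ins as the centre they were -0.037, -0.0012, -0.044 and -0.11, and -0.38 for the kinases; that centring lowers every gene by 0.27, and the cause of the offset was not tested. Without the Eif4ebp genes and Eif4enif1 the Eif4 median was 0.27. Leaving out the Eif2c names, an alternative chosen after seeing the data, gave a median of 0.24 for all members. Low signal left 3 members with no measured difference.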

Other observations

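In 4 members the measured probes disagreed in direction. At Eif4e the brightest probe differed by 0.37 and a dim probe by -0.25. At Eif4e2 the brightest probe differed by 0.27, and 2 dim probes by -0.06 and -0.45. At Eif4g3 the 4 probes ran from -0.34 to 0.03, and at Eif2c1 they stood at -0.08 and 0.22. The remaining probe of Eif4e, at 0.61, was past 1.5-fold.

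Initiation in mitochondria was read by Mtif2, at 6.40 in Nr4a-TKO and 6.76 in WT, and Mtif3, at 0.86 and 0.66. Of 7 helpers of scanning and reinitiation 6 were higher, beside 59.7% of all gene names, with a median of 0.15, or -0.12 with spike-ins as the centre. Mcts2 was highest at 0.59 and Dhx9 followed at 0.46, while Dhx33 was at -0.04 and Denr at 0.11.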
